A study of Sus scrofa with 6 samples.

Results

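Claudins and occludin are membrane proteins of tight junctions, the belts that seal the space between neighbouring epithelial or endothelial cells and set which ions and solutes pass between the cells. Claudins form the strands of the junction, and the set of claudins a cell makes differs between epithelia, vessels and other barriers. CLDN4 and CLDN7 are claudins of epithelia, CLDN5 is the main claudin of endothelium, CLDN11 forms the junctions of Sertoli cells and of myelin in mice, and OCLN encodes occludin, which lies in the strands beside the claudins. The account covers these 5 of the 6567 genes named on the array. They were taken as all probe sets that carry 1 platform gene symbol and in which it is CLDN4, CLDN5, CLDN7, CLDN11 or OCLN, which gave 7 of 23999 probe sets: 3 for OCLN and 1 for each of the others. All 7 passed the filter on low signals.

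The study profiled tissue labelled myometrium, the smooth muscle wall of the uterus, and ovary of sows (Sus scrofa) that were non-pregnant, in early pregnancy or in late pregnancy, and asks which genes differ between these stages. Each combination of tissue and stage had 1 array, 6 in all, so no condition had a replicate. The design text counts 9 pigs, 3 per stage, but the sources used here do not say whether each array holds 1 pig or several pooled. Days of gestation, age and breed are not given either. Values are MAS5 signals, a measure of the brightness of a probe set after background and mismatch correction, scaled by the authors to a common mean on every array. A signal of 81.7, the 40th percentile of all signals, was used as a floor: lower signals were set to it ahead of the log2 transform, they have no order among themselves, and a ratio to such a signal is a lower bound.

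The myometrium-labelled arrays were rich in epithelial transcripts. The summed signal of 8 epithelial markers ranged from 32010 to 43785 on the myometrium-labelled arrays and from 776 to 1139 on the ovary arrays. The summed signal of 7 smooth muscle markers ranged from 12311 to 21010 on the myometrium-labelled arrays and from 27090 to 41261 on the ovary arrays. On the myometrium-labelled arrays, 5 trophoblast markers summed to 276 at the non-pregnant, 25974 at the early pregnant and 32313 at the late pregnant stage. On the ovary arrays they summed to between 5466 and 8848, most of it CYP19A3, an aromatase gene. PAG6, a pregnancy-associated glycoprotein made by trophoblast in pigs, read 75.2, 22022 and 28500.2 on the myometrium-labelled arrays in order of stage and at most 240 on the ovary arrays. The 18 granulosa, theca and luteal markers summed to 1748, 12857 and 17555 on the myometrium-labelled arrays in order of stage, and to between 101381 and 125614 on the ovary arrays. GAPDH signal from 3' probes relative to 5' probes, a measure of RNA quality, lay between 1.52 and 1.70 on the myometrium-labelled arrays and between 1.51 and 2.33 on the ovary arrays. In these bulk samples, fewer cells of a type and less RNA per cell cannot be told apart.

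The epithelial claudins and occludin were high on every myometrium-labelled array and at or near the floor in ovary, whereas CLDN11 was high in ovary. In a limma fit with tissue and stage as additive terms over the 6 arrays (15882 probe sets tested, Benjamini-Hochberg threshold 0.05), 3 of the 5 genes (CLDN4, CLDN7 and OCLN) were higher on the myometrium-labelled arrays, 1 (CLDN11) was higher in ovary and 1 (CLDN5) did not pass. Over all probe sets tested, 2.23% were called higher on the myometrium-labelled arrays and 2.84% higher in ovary. The genes were chosen with earlier results of these data known, so the count describes them and does not set them apart. The 3 arrays of a tissue come from different stages, so the p-values say nothing of the spread between pigs. They rest on how far the tissue difference agrees between the stages. The limma variance of a probe set also draws on the other probe sets tested. With the pair of early pregnant arrays left out, 0 of the 5 genes and 0 of all probe sets passed in either direction by limma (1790 probe sets at an unadjusted p under 0.05), and with no filter on low signals 0 passed either (2782 at an unadjusted p under 0.05).

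CLDN4, a receptor for Clostridium perfringens enterotoxin together with CLDN3, had signals of 1384, 4612 and 3933 on the non-pregnant, early pregnant and late pregnant myometrium-labelled arrays, against 67.2, 44.5 and 51.2 on the ovary arrays. All 3 ovary signals lay under the floor, and the tissues did not overlap. The mean signal was 3309.9 ± 1702 on the myometrium-labelled arrays and 54.3 ± 11.7 in ovary (SD, n = 3 arrays of different stages each). The log2 difference on floored signals, myometrium minus ovary, was 5.16 ± 0.42 (SE; limma adjusted p = 0.00700), a lower bound. The early and late pregnant myometrium-labelled arrays lay within 2-fold of each other, and the non-pregnant array lay 2.84-fold below the nearer of them.

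CLDN7, which forms complexes with the epithelial adhesion molecule EPCAM, read 2673, 2638 and 4069.9 on the myometrium-labelled arrays in order of stage, against 45.6, 35.5 and 40.2 on the ovary arrays. Here, too, every ovary signal was under the floor, but the 3 myometrium-labelled arrays lay within 2-fold of each other. The mean was 3127 ± 817 on the myometrium-labelled arrays and 40.4 ± 5.05 in ovary (SD, n = 3 each). The log2 difference was 5.23 ± 0.29 (SE; limma adjusted p = 0.00358), again a lower bound. Without the early pregnant pair it was 5.34 (limma adjusted p = 0.0868).

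The brightest OCLN probe set read 2334, 3411 and 3926 on the myometrium-labelled arrays in order of stage, against 152, 126 and 126 on the ovary arrays. OCLN thus stayed above the floor in ovary, unlike CLDN4 and CLDN7, with all 3 ovary arrays within 2-fold of each other. Its mean was 3224 ± 812 on the myometrium-labelled arrays and 135 ± 14.8 in ovary (SD, n = 3 each), a log2 difference of 4.55 ± 0.31 (SE; limma adjusted p = 0.00495).

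The other OCLN probe sets were dimmer. The middle one read 474, 305 and 411 on the myometrium-labelled arrays and 36.2, 44.7 and 20.5 on the ovary arrays, a log2 difference of at least 2.26 (limma adjusted p = 0.0175). The dimmest read 69.3, 106 and 97.7 on the myometrium-labelled arrays and 19.8, 17.6 and 4.1 on the ovary arrays, a difference of 0.21 (limma adjusted p = 0.543) on floored signals. The 3 probe sets gave the same order of the tissues but different sizes, and they ordered the stages of the myometrium-labelled arrays differently: the non-pregnant array was the lowest with 2 of them and the highest with the middle one. With the 3 averaged on floored signals, the log2 difference was 2.34 (limma adjusted p = 0.0128). The middle and the dimmest probe set lay under the floor on every ovary array, so the floor limits the size of that average.

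**Figure D1:**
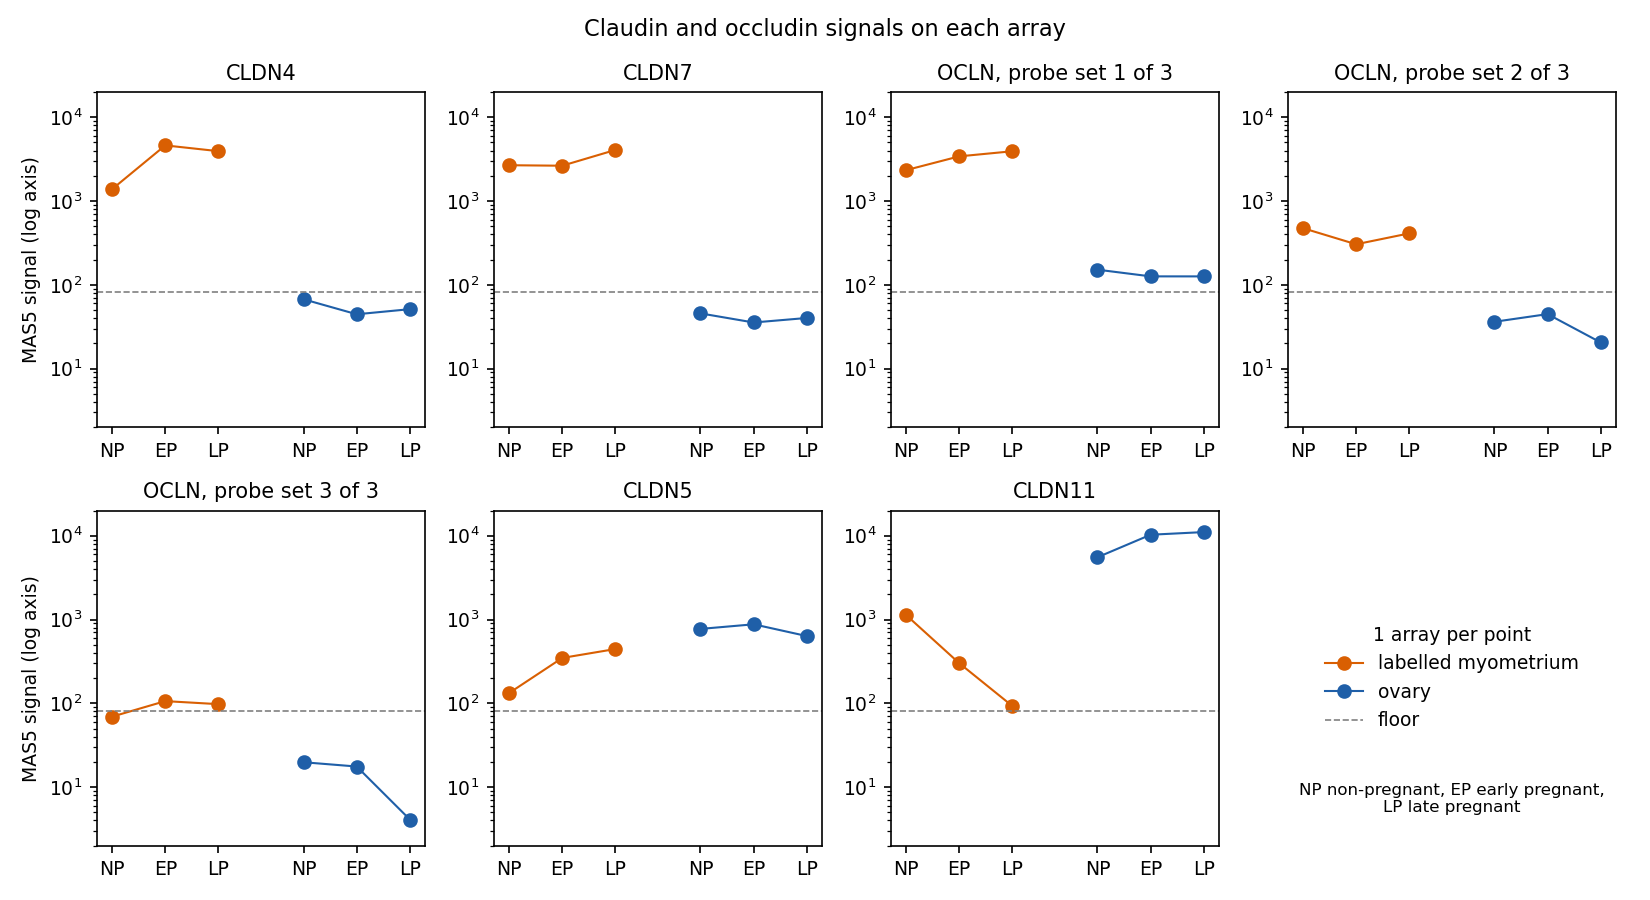
MAS5 signal on a log axis for each of the 7 probe sets on each of the 6 arrays, with the 3 myometrium-labelled arrays at the left and the 3 ovary arrays at the right of each panel, and the floor of 81.7 as a dashed line. CLDN4, CLDN7 and the brightest OCLN probe set read 1384 or more on every myometrium-labelled array, while CLDN11 read 5531 or more on every ovary array and 92.8 on the late pregnant myometrium-labelled array.

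CLDN5 read 132, 348 and 444 on the myometrium-labelled arrays in order of stage, against 772, 877 and 634 on the ovary arrays. The highest myometrium-labelled array lay below the lowest ovary array, by 1.43-fold, so the tissues did not overlap, but the late pregnant arrays of the tissues were within 2-fold of each other. The mean was 308 ± 160 on the myometrium-labelled arrays and 761 ± 122 in ovary (SD, n = 3 each). The log2 difference was -1.46 ± 0.44 (SE; limma adjusted p = 0.134; 95% interval before adjustment -2.56 to -0.37). The size rested on the non-pregnant pair: the log2 difference was -0.92 without it (limma adjusted p = 0.228) and -1.94 without the late pregnant pair (limma adjusted p = 0.132), and neither passed.

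CLDN11 had the widest span of the 5 genes on floored signals, where the spans of CLDN4 and CLDN7 are lower bounds. It read 1134, 302 and 92.8 on the myometrium-labelled arrays in order of stage, against 5531, 10275 and 11055 on the ovary arrays. Every ovary array exceeded every myometrium-labelled array, and on the myometrium-labelled arrays each stage lay more than 3-fold below the one before it. The mean was 509.6 ± 551 on the myometrium-labelled arrays and 8954 ± 2989.8 in ovary (SD, n = 3 each). The log2 difference was -4.76 ± 0.82 (SE; limma adjusted p = 0.0352; 95% interval -6.78 to -2.74). Without the late pregnant pair it was -3.69 (limma adjusted p = 0.0703), and without the early pregnant pair -4.59 (limma adjusted p = 0.283).

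All 5 genes separated the tissues without overlap, as did 12.8% of the probe sets tested with the myometrium-labelled arrays above and 14.6% with the ovary arrays above. Within each stage, CLDN4, CLDN7 and OCLN were 2-fold or more higher on the myometrium-labelled array in all 3 pairs of arrays, and CLDN11 was 2-fold or more lower in all 3. CLDN5 was 2-fold or more lower in the non-pregnant and early pregnant pairs. Such ratios were common: 8.67% of measured probe sets were higher by that much and 8.74% lower among non-pregnant arrays, 10.6% and 12.4% among early pregnant ones, and 12.6% and 12% among late pregnant ones. The log2 ratio, myometrium over ovary, of CLDN11 was -2.29 at the non-pregnant, -5.09 at the early and -6.90 at the late pregnant stage, whereas that of CLDN5 was -2.54, -1.33 and -0.51. The span of CLDN7 over the stages of the tissue labelled myometrium was 0.63 on the log2 scale, that of OCLN 0.75, those of CLDN4 and CLDN5 1.74 and 1.75, and that of CLDN11 3.61. Over the ovary arrays, the span was 0.27 for OCLN, 0.47 for CLDN5 and 0.999 for CLDN11.

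Of the 5 claudin family genes tested beside CLDN4, CLDN5, CLDN7 and CLDN11, 1 (CLDN3) was higher on the myometrium-labelled arrays, 0 in ovary, and 4 did not pass. Over the 5675 named genes tested, 2.52% were higher on the myometrium-labelled arrays and 2.94% in ovary. The median log2 difference of the 5 was 1.05, against -0.030 over all named genes. CLDN3, an epithelial claudin that is the neighbour of CLDN4 in the gene order of RefSeq's Sscrofa11.1 assembly, read 594, 771 and 1043 on the myometrium-labelled arrays in order of stage and at most 45.6 on the ovary arrays, a log2 difference of at least 3.26 (limma adjusted p = 0.0114). A dimmer CLDN3 probe set was above the floor only on the non-pregnant myometrium-labelled array, at 116. CLDN10, whose protein forms ion-selective pores, read 2529, 627 and 437 on the myometrium-labelled arrays, against 127, 184 and 128 on the ovary arrays. Its log2 difference of 2.62 did not pass (limma adjusted p = 0.0661), and its signal was highest on the non-pregnant array, where CLDN4 was lowest. CLDN6, a claudin of embryonic epithelia, read 95.3, 336 and 150.4 on the myometrium-labelled arrays and lay under the floor on all ovary arrays (log2 difference at least 1.05, limma adjusted p = 0.183). CLDN12 and CLDND1 did not pass, and CLDN14 was under the floor on all 6 arrays.

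Among 5 tight junction membrane proteins tested beside the claudins and OCLN, 2 (MARVELD3 and LSR) were higher on the myometrium-labelled arrays, 0 in ovary, and 3 did not pass, with a median log2 difference of 1.12. MARVELD3, a relative of occludin, differed by at least 2.79 (limma adjusted p = 0.0439), with signals of 199, 940.2 and 963 on the myometrium-labelled arrays in order of stage and at most 30.3 on the ovary arrays. A second MARVELD3 probe set read 290, 289 and 437 on the myometrium-labelled arrays and lay under the floor on the ovary arrays. LSR, a protein of the points where 3 cells meet, differed by 2.41 (limma adjusted p = 0.0162), and CXADR, the coxsackievirus and adenovirus receptor, by 1.12 (limma adjusted p = 0.164). Of 7 scaffold and polarity genes, 1 was higher on the myometrium-labelled arrays and 6 did not pass, and the median was -0.46. PRKCZ, an atypical protein kinase C of the polarity complex, differed by at least 1.88 (limma adjusted p = 0.0188), and the multi-PDZ scaffold MPDZ by -1.12 (limma adjusted p = 0.147). The brightest probe set of TJP1, which encodes the scaffold ZO-1, read at most 56 and so lay under the floor on all arrays. Such a reading cannot tell a lack of transcript from a probe set that detects it poorly.

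Most genes listed as epithelial claudin partners and regulators had the direction of CLDN4 and CLDN7 between the tissues. Whether they act on claudins here was not tested. Of 10 such genes tested, 8 were higher on the myometrium-labelled arrays, 0 in ovary, and 2 did not pass, with a median of 2.98. Over all named genes tested, 2.52% were higher on the myometrium-labelled arrays and 2.94% in ovary. EPCAM, which is also counted among the general epithelial markers below, differed by 6.21. The membrane proteases ST14 (matriptase) and PRSS8 (prostasin) differed by at least 3.94 and 3.09, and their inhibitors SPINT2 and SPINT1 by 4.09 and at least 2.64. The splicing regulator ESRP1 differed by at least 3.73, and the epithelial transcription factors ELF3 and EHF by at least 2.88 and 2.17. These 8 had limma adjusted p-values of 0.00358 to 0.0356. The 2 that did not pass were MAL2 at 1.66 (limma adjusted p = 0.153) and OVOL1 at 0.30 on floored signals (limma adjusted p = 0.484). The tissues overlapped for MAL2, which read 3416.3 on the late pregnant ovary array and 3297.1 on the late pregnant myometrium-labelled array. Among general epithelial markers, 6 of 7 tested were higher on the myometrium-labelled arrays and 1 did not pass (median 5.23), including CDH1 (E-cadherin) at 5.23 and the keratins KRT18 and KRT19 at 5.75 or more. These markers move with CLDN4, CLDN7 and OCLN between the tissues, and their part in the result was not tested.

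**Figure D2:**
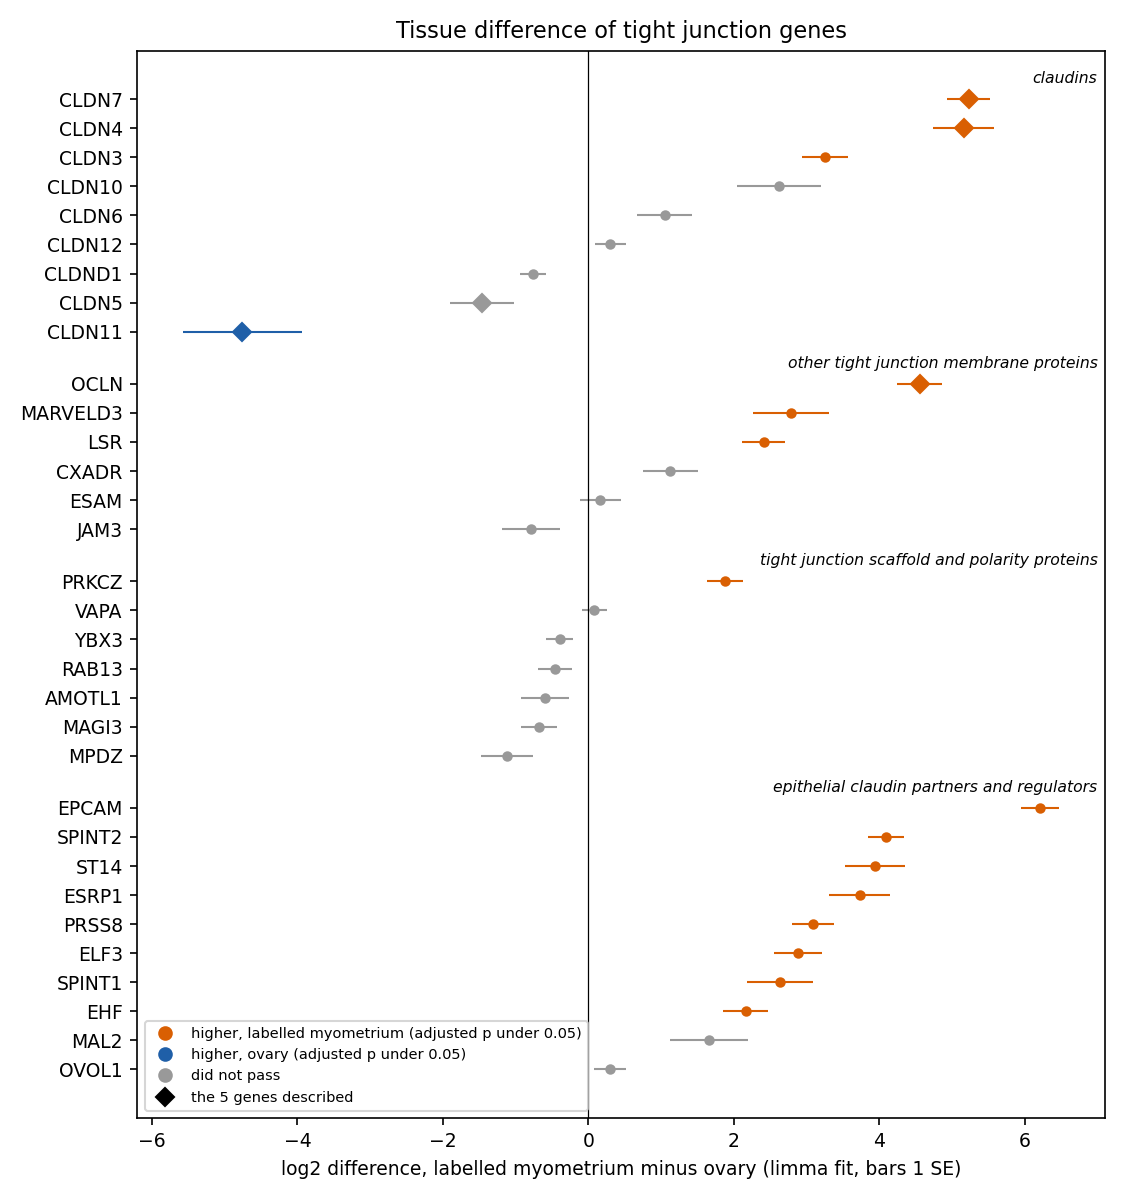
Log2 difference, myometrium-labelled arrays minus ovary arrays, with 1 SE from the limma fit, for the tested genes of the claudin family, of other tight junction proteins and of epithelial claudin partners; filled diamonds are the 5 genes described, and differences with signals under the floor are lower bounds. CLDN7 and CLDN4 lie at 5.23 and 5.16 and CLDN11 at -4.76, at opposite ends of the claudin family.

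In the non-pregnant pair, the ratio of CLDN5 lay below those of the endothelial markers measured. Of 11 endothelial markers tested, 0 passed in either direction (limma, with no adjusted p in the list below 0.372). Over all named genes tested, 2.52% were higher on the myometrium-labelled arrays and 2.94% in ovary, so 0 of 11 lay near those shares. The median log2 difference of the 11 was -0.11, against -1.46 for CLDN5, which did not pass either. The non-pregnant log2 ratios, myometrium over ovary, of the 10 markers measured there ranged from -1.26 to 0.24, and CLDN5 lay at -2.54. Of these 10, 2 were 2-fold or more lower, TIE1 at -1.26 or below and ENG at -1.17, and 0 were 2-fold or more higher. Over all measured probe sets of that pair, 8.74% were lower and 8.67% higher by as much. On the myometrium-labelled arrays, the late over non-pregnant log2 ratio was at least 1.18 for TIE1 and 1.17 for ENG. The median of the 11 markers measured there was 0.55, and CLDN5 had 1.75. The defining endothelial genes PECAM1 and CDH5, named after their values were seen, had ratios of -0.65 and -0.50 in the non-pregnant pair. PECAM1 read 1111, 1889 and 2199.9 on the myometrium-labelled arrays in order of stage, against 1744, 1885 and 1758 on the ovary arrays. CDH5 (VE-cadherin) read 758, 990.2 and 1108 on the myometrium-labelled arrays, against 1069, 1205 and 1093 on the ovary arrays. Both were thus well above the floor on the non-pregnant myometrium-labelled array. Whether CLDN5 differs from these markers beyond the spread between pigs could not be tested with 1 array per condition.

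**Figure D3:**
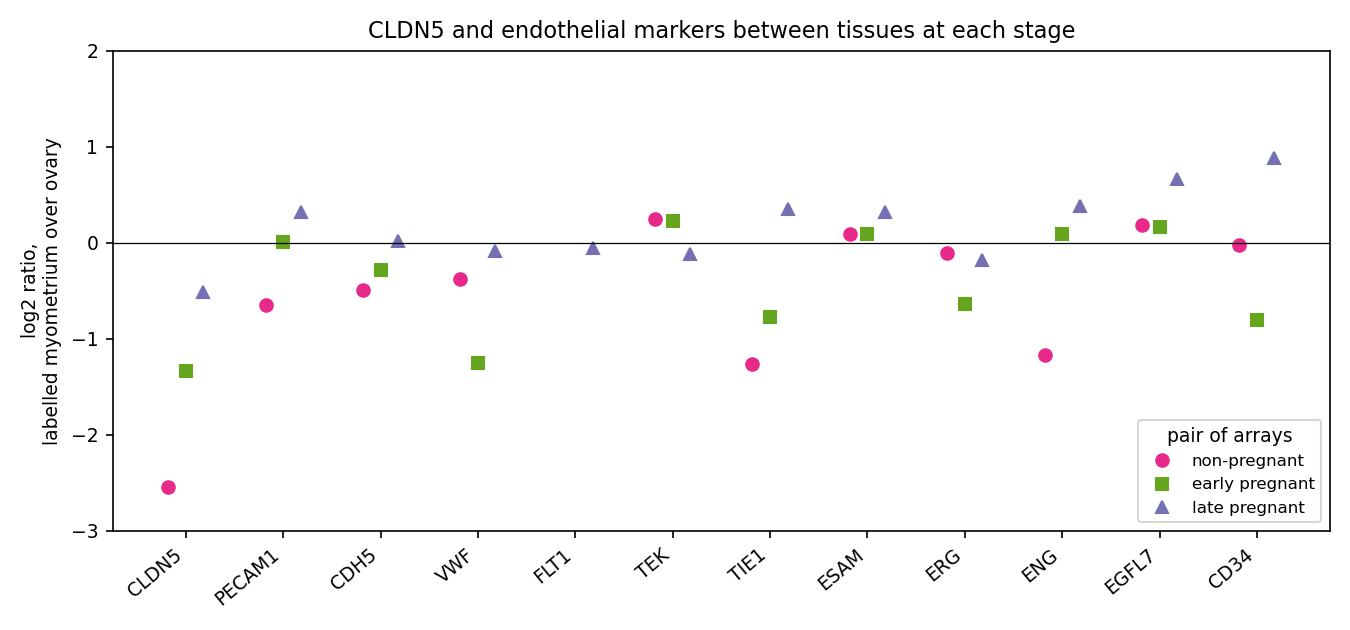
Log2 ratio, myometrium-labelled array over ovary array, for CLDN5 and the 11 endothelial markers in each pair of arrays of the same stage; pairs with both signals under the floor are left out. CLDN5 lies at -2.54, -1.33 and -0.51 in order of stage, while the markers of the non-pregnant pair lie between -1.26 and 0.24.

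CLDN11 shared its direction between the tissues with markers of granulosa and steroid-producing cells. Of 16 granulosa, theca and luteal markers tested, 11 were higher in ovary, 0 were higher on the myometrium-labelled arrays and 5 did not pass, with a median log2 difference of -3.86. Over all named genes tested, 2.94% were higher in ovary and 2.52% on the myometrium-labelled arrays. The inhibin subunit INHA differed by -5.55 or below, the luteinizing hormone receptor LHCGR by -5.26 or below and relaxin, RLN2, by -7.59 or below. Nerve and myelin markers, listed because CLDN11 is a myelin protein, gave 1 gene higher in ovary of 3 tested, the adhesion molecule NCAM1, at -1.60 or below (limma adjusted p = 0.0284). The myelin protein gene MBP lay the other way at 1.05 (limma adjusted p = 0.148), and SOX10, a factor of myelinating glia, was under the floor on all arrays. Of 2 mesothelial and ovarian surface markers tested, 0 passed: UPK1B had a difference of 3.48 (limma adjusted p = 0.0705) and WT1 one of -1.13 or below (limma adjusted p = 0.195). Of 5 trophoblast markers, 1, CYP19A3, was higher in ovary and 4 did not pass, and of 7 smooth muscle markers 0 passed.

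The stages were compared with 1 array on each side, so the ratios that follow are given with neither a p-value nor a check against replicates. On the myometrium-labelled arrays, CLDN4 and CLDN5 were 2-fold or more higher and CLDN11 was 2-fold or more lower in both pregnant conditions than in the non-pregnant one. That is 2 of 5 genes higher and 1 lower, beside 8.76% of measured probe sets higher by as much and 10.3% lower at the early pregnant stage, and 10.9% higher and 12.6% lower at the late pregnant stage. CLDN4 had log2 ratios of 1.74 at the early and 1.51 at the late pregnant stage to the non-pregnant one, CLDN5 of 1.39 and 1.75, and CLDN11 of -1.91 and -3.61. CLDN7 had ratios of -0.019 and 0.61 and OCLN of 0.55 and 0.75, all under 2-fold. Between the late and the early pregnant array, CLDN11 was 2-fold or more lower at -1.70, where 5.62% of probe sets were, and the other 4 genes lay within 2-fold. None was 2-fold or more higher, against 5.87% of probe sets.

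The ratios of epithelial genes between the stages went in both directions. Over all measured probe sets of the myometrium-labelled arrays, 8.76% were 2-fold or more higher and 10.3% lower at the early pregnant stage. At the late pregnant stage these shares were 10.9% and 12.6%. Counts of 0 to 2 genes in a list lie near such shares. On the myometrium-labelled arrays, 0 of 7 epithelial markers measured were 2-fold or more higher and 3 were 2-fold or more lower at the early pregnant stage than at the non-pregnant stage, with a median log2 ratio of -0.65. At the late pregnant stage 1 was higher, MUC1, and 0 were lower, with a median of -0.085. Of the 10 epithelial claudin partners, 2 were 2-fold or more higher and 0 lower at each pregnant stage, SPINT1 (log2 ratios of 1.33 and 2.13) at both, MAL2 (1.29) at the early and ST14 (1.38) at the late one. MARVELD3 had ratios of 2.24 and 2.27 with its brightest probe set, but of -0.0080 and 0.59 with a second one, so its probe sets disagreed. Of the trophoblast markers, 4 of 5 measured were 2-fold or more higher at the early pregnant stage, with a median of 2.46, and 3 of 4 at the late pregnant stage, with a median of 4.25. Of 10 granulosa, theca and luteal markers measured, 5 were 2-fold or more higher and 0 lower at the early pregnant stage, with a median of 1.01, and 4 were higher and 1 lower at the late pregnant stage, with a median of 0.085. STAR, which moves cholesterol into mitochondria, had log2 ratios of at least 6.09 and 6.40. FST, which encodes follistatin, had ratios of -0.42 and -2.22, below 0 as those of CLDN11 were, and RLN2 had ratios of 0.34 and -0.54. The part of the trophoblast, granulosa, theca and luteal markers in the ratios of CLDN4, CLDN5 and CLDN11 was not tested. Of the endothelial markers, 1 of 10 was 2-fold or more higher at the early and 3 of 11 at the late pregnant stage, with medians of 0.25 and 0.55.

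In ovary, 0 of the 5 genes were 2-fold or more higher or lower in any pair of stages. Over all measured probe sets, ovary at the early pregnant stage had 2.45% higher and 2.15% lower by 2-fold or more relative to non-pregnant ovary. At the late pregnant stage these shares were 2.92% and 3.65% relative to non-pregnant ovary, and 1.5% and 2.71% relative to early pregnant ovary. CLDN11 came closest, with log2 ratios of 0.89 at the early and 0.999 at the late pregnant stage to the non-pregnant one, just under 2-fold. When arrays were centred on their medians, the late pregnant ratio was 1.15; the median signal of the late pregnant ovary array was 0.15 lower on the log2 scale than that of the non-pregnant one. CLDN5 had ratios of 0.18 and -0.28 and OCLN of -0.27 at both stages, while CLDN4 and CLDN7 stayed under the floor.

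**Figure D4:**
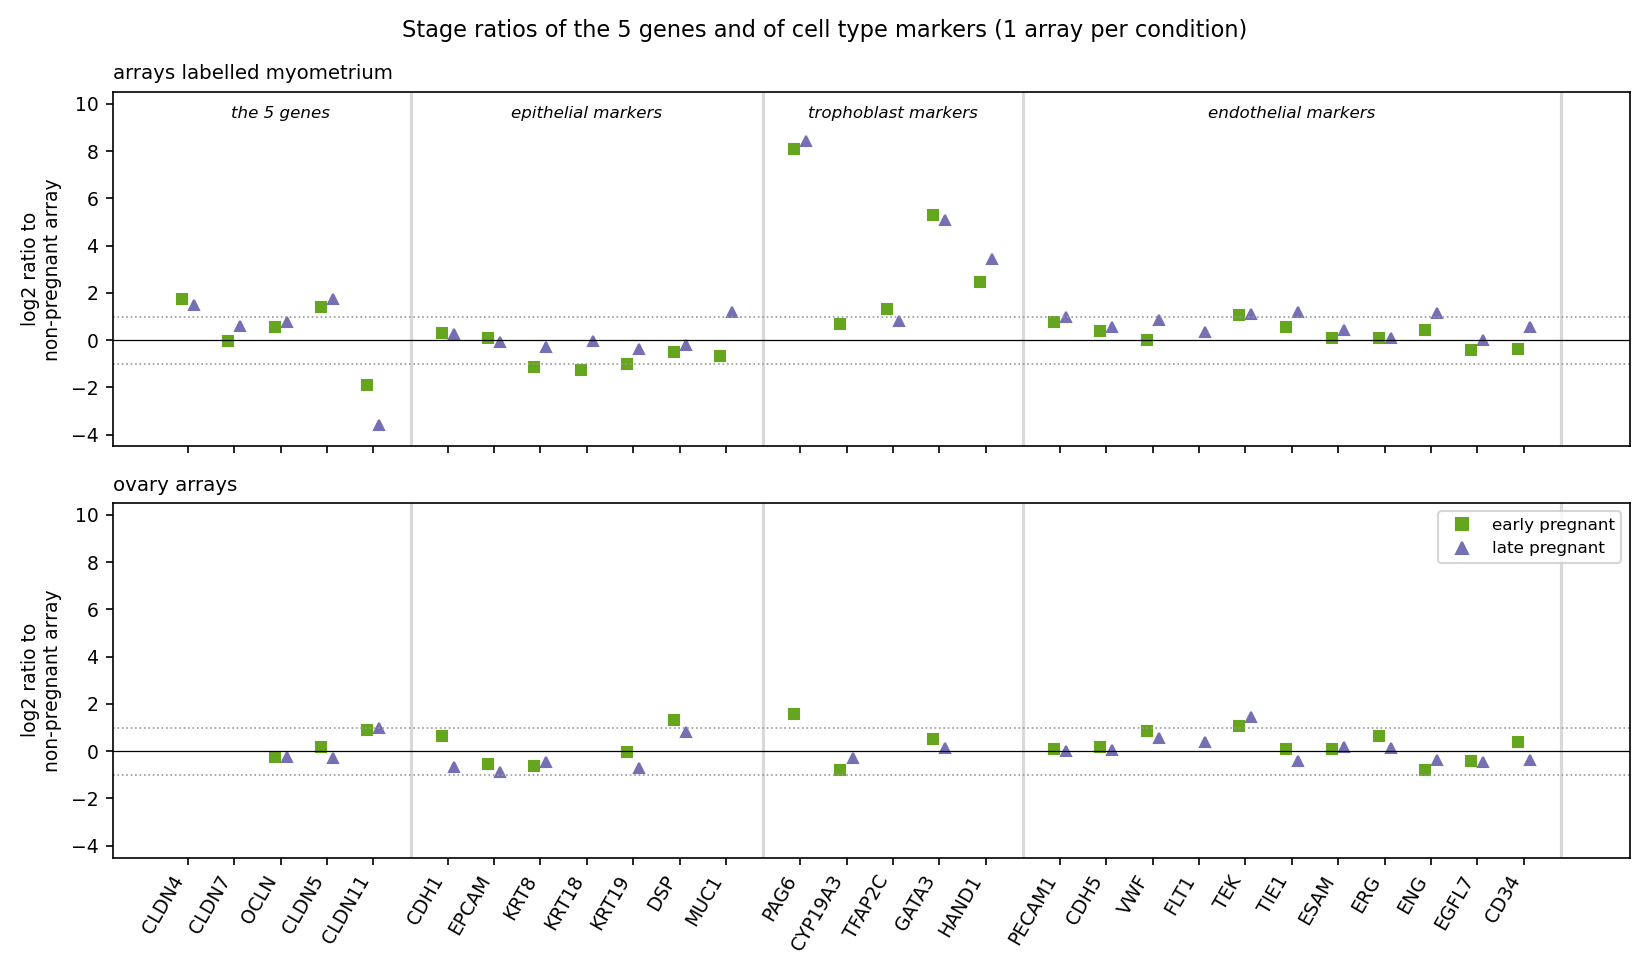
Log2 ratio of the early and late pregnant array to the non-pregnant array of the same tissue, for the 5 genes and for the tested epithelial, trophoblast and endothelial markers; dotted lines mark 2-fold, and pairs with both signals under the floor are left out. On the myometrium-labelled arrays CLDN4 and CLDN5 lie above 1 and CLDN11 below -1 at both stages, and PAG6 lies above 8, whereas on the ovary arrays none of the 5 genes passes 2-fold.

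No stage difference shared by both tissues passed the test for any of the 5 genes. In the same additive limma fit, 0 of 15882 probe sets (0%) were called in each of the 3 stage contrasts, and 686, 964 and 261 had an unadjusted p under 0.05 (4.32%, 6.07% and 1.64%) for early against non-pregnant, late against non-pregnant and late against early pregnant. Of the 5 genes, CLDN4 had fitted log2 differences of 0.87 ± 0.51 (SE, limma adjusted p = 0.822) for early pregnant minus non-pregnant and 0.75 ± 0.51 (SE, limma adjusted p = 0.711) for late pregnant minus non-pregnant. CLDN4 and CLDN7 lay under the floor on every ovary array, so their ovary profiles are flat by construction. For these genes the fit therefore cannot test a difference shared by both tissues. CLDN11, whose stage ratios had opposite signs in the tissues, had a shared difference of -1.31 ± 1.001 (SE; limma adjusted p = 0.728) for late pregnant minus non-pregnant. A difference of the stage effect between the tissues could not be tested, because it leaves no residual degrees of freedom.

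CLDN4, CLDN7 and OCLN had like profiles over the arrays, and CLDN5 and CLDN11 differed from them and from each other. Likeness was measured as the root mean square difference between log2 profiles, each centred on its own mean over the 6 arrays, among the brightest probe sets of 5674 other genes. The gene nearest to OCLN was the homeobox gene DLX5 at 0.25, followed by SMIM22 at 0.31 and ST14 at 0.36. DLX5 at 0.35, OCLN at 0.39 and SMIM22 at 0.39 were nearest to CLDN7. The protease inhibitor gene SLPI at 0.35, the peptide transporter gene SLC15A2 at 0.41 and OCLN at 0.47 were nearest to CLDN4, and 5 genes lay closer to CLDN4 than CLDN7 did at 0.51. Because CLDN4 and CLDN7 lay under the floor in ovary, their profiles there are flat by construction. The transcription factor gene TCF21 at 0.20 was nearest to CLDN5, followed by PROS1, which encodes protein S, and MFAP2, each at 0.27. TCF21 read 278, 519 and 798 on the myometrium-labelled arrays in order of stage, against 1287, 1747 and 1403 on the ovary arrays. No gene came as close to CLDN11 on this measure, which grows with the span of a profile. Follistatin, FST, lay at 0.85, the glutathione transferase gene GSTA4 at 0.89 and UCHL1 at 0.90. CLDN5 and CLDN11, both with negative tissue differences, were 2.30 apart, with 5557 of the 5674 genes closer to CLDN5 than CLDN11 was. On profiles scaled to unit SD, the nearest gene to CLDN11, PRR15, lay at 0.12. The nearest to CLDN5, ACTA2, lay at 0.29 on that scale, and those to CLDN4, CLDN7 and OCLN at 0.033 to 0.092.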

How the data were processed

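Total RNA was labelled with biotin and hybridised to single-channel Affymetrix arrays, per the labels' protocols. The deposited intensity values were made by the authors with MAS5, per the submitters' processing notes. The sources used here do not give its version or settings. The mean after trimming 2% of probe sets at each end was 500.1 on every array, so the arrays had been scaled, which hides changes in total RNA.

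Of 24123 probe sets, 124 controls were left out. Gene names came from the platform annotation: 10069 probe sets had 1 symbol, 198 several and 13732 none. Each gene was represented by its brightest probe set.

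Signals were floored at 81.7, log2 transformed and fitted with limma 3.58.1 in R 4.3.3 (tissue plus stage, intensity trend, Benjamini-Hochberg adjustment, 2 residual degrees of freedom) over the 15882 probe sets that exceeded the floor in 2 or more arrays. The fit was tested on simulated data. Stage ratios had no test.

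The genes, the marker lists and the rule for named genes were chosen with earlier results of these data known. The rule named list members past the threshold or with a 2-fold mean tissue difference, up to 8 a list, and the 3 genes most like each of the 5. Alternatives changed the floor, pseudocount, scaling, filter, variance trend, stage block, arrays and probe set rule. The number of arrays limits the precision. Figures used Python 3.11.15 and matplotlib 3.10.9.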

Additional observations from a re-analysis of the deposited data

Results flagged for a closer look

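The stage ratios of CLDN11 had opposite signs in the tissues, each by more than 1.5-fold. From the non-pregnant to the early pregnant stage, the log2 ratio was -1.91 on the myometrium-labelled arrays and 0.89 on the ovary arrays. From the non-pregnant to the late pregnant stage, it was -3.61 on the myometrium-labelled arrays and 0.999 on the ovary arrays. Each condition is 1 array, and the difference between the tissues was not tested. No condition had enough arrays for a check of single outlying samples.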

How the results depend on the processing

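No paired analysis was possible because each group held 1 array and the labels tie no array to a pig; arrays were matched by stage only, as a term of the fit. The tissue difference kept its direction for all 7 probe sets under each alternative that gave a value. CLDN4 ranged from 3.57 to 5.77 and CLDN7 from 3.64 to 6.25, with these ends set by the floor. The brightest OCLN probe set ranged from 3.68, with the floor at 246.2, to 4.86. The 3 OCLN probe sets averaged gave 2.34. CLDN5 ranged from -2.51 to -0.92 and CLDN11 from -5.99 to -2.92. The values of -2.51 and -2.92 are of the non-pregnant myometrium-labelled array alone against the ovary arrays. The calls held less well. With no filter on low signals, 0 of the 5 genes and 0 of all probe sets passed in either direction. With 1 array left out, between 0 and 3 of the 5 genes were called higher on the myometrium-labelled arrays and between 0 and 1 in ovary, and between 0 and 296 of all probe sets higher on the myometrium-labelled arrays and between 0 and 174 in ovary. In such a fit the partner array of the same stage no longer informs the tissue difference. With both arrays of a stage left out, the counts over all probe sets, higher on the myometrium-labelled arrays and higher in ovary, were 0 and 0 without the early pregnant, 118 and 109 without the late pregnant and 260.0 and 138 without the non-pregnant arrays, against 354 and 451 in the full fit. The genes called were 0 and 0 without the early pregnant and 3 and 0 without the late pregnant arrays. These fits have 1 residual degree of freedom. With the floor at 246.2, 179 and 298 probe sets passed, and without the stage block 499 and 715. The non-pregnant myometrium-labelled array alone against ovary, chosen after seeing the data, gave 931 and 309; this takes the lone array to vary as the ovary arrays do, and is no check on the fit. With the floor at 246.2, 1 gene rather than 2 was 2-fold or more higher at the early and at the late pregnant stage on the myometrium-labelled arrays, and 0 rather than 1 were lower between late and early pregnancy. Centring on the median gave 1 gene, CLDN11, 2-fold or more higher in late pregnant relative to non-pregnant ovary. On profiles scaled to unit SD, at most 1 of the 3 genes most like each gene was shared.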
